A study of Mus musculus with 24 samples.

Results

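The genes described here are 9 members of the transforming growth factor beta (TGF-beta) pathway: the ligands Tgfb1, Tgfb2 and Tgfb3, the receptors Tgfbr1, Tgfbr2 and Tgfbr3, and the target genes Ccn2 (also named Ctgf), Ltbp2 and Smad7. They were chosen by gene symbol, and all 9 were found among the 36109 genes of the lung table and the 36595 of the retina table. All 9 passed the filter on low counts in both tissues, which kept 16819 lung genes and 19173 retina genes for testing. The study sequenced RNA of 24 mice, 12 lungs and 12 retinas, with 4 groups of 3 mice per tissue. WT mice breathed room air (WT-RA) or high oxygen (WT-O2), as did GSDMD-KO mice (KO-RA or KO-O2). GSDMD is gasdermin D, a protein that forms pores in membranes during inflammatory cell death, and the study asked how its loss alters the neonatal response to high oxygen. The KO mice were homozygous for a small CRISPR/Cas9 deletion inside an exon of the gene, on a C57/B6 background, and the WT mice were littermates. The deletion was carried by every cell. By quantitative RT-PCR the study found Gsdmd RNA barely detectable in KO lungs and retinas, and raised by hyperoxia in WT. Lungs were collected on postnatal day 15 after 85% or 21% oxygen from day 1 to 14, a model of bronchopulmonary dysplasia. Retinas were collected on postnatal day 18 from mice that were given 75% oxygen from day 7 to 12 and then returned to room air, a model of retinopathy of prematurity, or from mice kept in room air. Whole tissue was used, so fewer cells of a type and less RNA per cell cannot be told apart.

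TGF-beta ligands are secreted in a latent form bound to the matrix and are released by integrins and other activators. The active ligand binds the type II receptor (Tgfbr2), which recruits and activates the type I receptor (Tgfbr1), and this kinase phosphorylates the receptor-regulated Smads. The pathway is known for its roles in alveolar septation and fibrosis in the lung, and in vessel walls and scarring in the retina.

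Library totals ran from 28763661 to 29604254 counts in the lung and from 24863257 to 29093035 in the retina. Gsdmd was lower in all KO lungs (11.7 to 24.8 CPM, the count scaled to a common library size) than in all WT lungs (32.1 to 42.3 CPM). Unlike in the study's RT-PCR, KO lungs thus kept counts of the gene. WT-O2 lungs (32.1 to 36.4 CPM) also lay below WT-RA lungs (40.5 to 42.3 CPM), and the reason was not tested. In the retina Gsdmd was at 5.69 CPM or less and did not separate the genotypes. KO-O2 mouse 3, at 2.949 CPM, was above WT-O2 mouse 2 (2.898 CPM) and WT-RA mouse 3 (2.697 CPM). The library labelled WT-RA, mouse 2, held 0.419 CPM, below every KO retina (0.635 to 2.95 CPM). Lens genes summed to 13070 CPM in that library, 45450 CPM in WT-RA mouse 3 and 18480 CPM in KO-RA mouse 3, against 2.77 to 216.8 CPM in the other retinas. Y-linked genes were present in 0 WT-RA lungs and 1 WT-O2 lung, against 2 KO-RA and 3 KO-O2 lungs, out of 3 each, and in 3, 1, 3 and 1 retinas of the same groups. The markers of alveolar epithelium (type 2 list, 11970 to 19810 CPM) and of photoreceptors (48470 to 72400 CPM) were high in every lung and retina, respectively.

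In the lung, hyperoxia moved 1 ligand, a pair of receptors and 1 target, and did so in both genotypes. Tgfb2, Tgfbr2 and Ccn2 rose and Tgfbr3 fell. In WT lungs 3 of the 9 members passed the test as higher and 1 as lower, in a comparison in which 24.5% of all tested genes were higher and 24.7% lower. In KO lungs 3 passed as higher and 2 as lower, beside 23.3% and 23.4% of all tested genes. A change of at least 2-fold was reached by 2 members in WT and 2 in KO, both times Tgfb2 and Ccn2, against 11.6% and 10.6% of all tested genes. A gene passed at an adjusted p under 0.1 and an unadjusted p under 0.05 in the quasi-likelihood F-test of edgeR, adjusted over all tested genes by the Benjamini-Hochberg method. The members' median log2 fold change was -0.01 in WT and -0.03 in KO, and that of all tested genes was -0.01 in both.

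**Figure D1:**
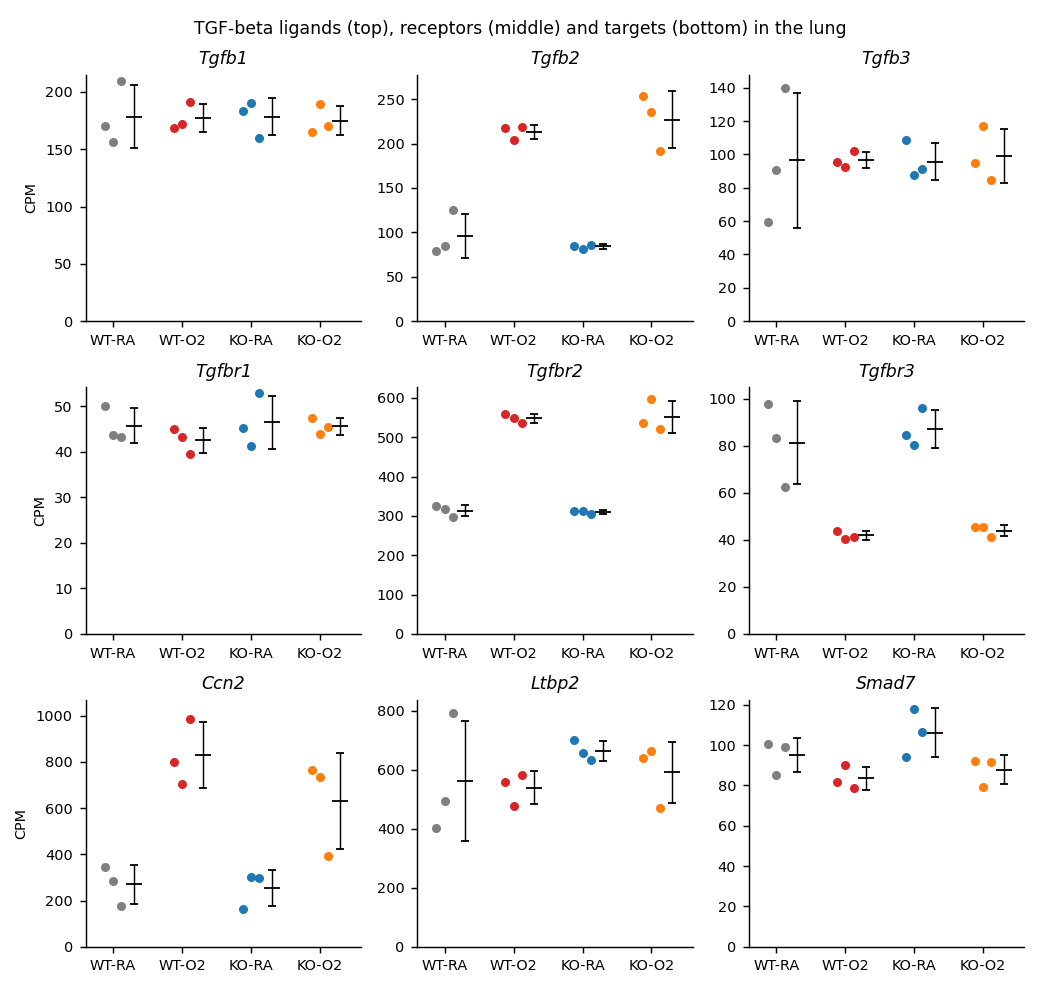
Expression of the 9 members in each of the 12 lungs, in CPM on axes that start at 0, by group. Points are mice, and the black mark and bar beside them are the mean and SD of 3 mice. Tgfb2 lies between 191 and 254 CPM in the 6 hyperoxic lungs and between 79.0 and 125 CPM in the 6 room air lungs.

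Tgfb2, the ligand that binds its receptors well only with the help of a co-receptor, was at 79.0, 84.8 and 125 CPM in the WT-RA lungs (mice 1, 2 and 3) and at 217, 204 and 219 CPM in the WT-O2 lungs. It was at 84.4, 81.5 and 86.2 CPM in KO-RA and at 254, 235 and 191 CPM in KO-O2. Every hyperoxic lung was above every room air lung, and the highest room air value belonged to WT-RA mouse 3. The log2 fold change was 1.15 ± 0.15 (SE) in WT, with an adjusted p of 3.8e-05, and 1.43 ± 0.15 in KO, with an adjusted p of 6.6e-06. Tgfb1, the ligand made widely by immune and stromal cells, did not separate the groups: its means were 178.5 ± 27.6 (SD, n = 3) and 177 ± 12.1 CPM in WT-RA and WT-O2, and 178 ± 16.2 and 175 ± 12.8 CPM in KO-RA and KO-O2. Tgfb3 had means of 96.6 ± 40.5, 96.8 ± 4.84, 95.7 ± 11.2 and 98.9 ± 16.3 CPM in the same order. Its WT-RA values of 59.3, 90.7 and 139.6 CPM spanned all other lungs. Neither ligand passed the test, with log2 fold changes of -0.01 ± 0.11 in WT and -0.03 ± 0.11 in KO for Tgfb1, and of 0.00 ± 0.25 and 0.05 ± 0.25 for Tgfb3.

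Levels were also divided by kilobases of merged exons, the joined length of all annotated exons, which can exceed that of the transcripts present. On this rough scale for comparing genes, the order of the ligands differed between the exposures. In WT-RA lungs Tgfb1 was at 35.4 ± 5.48 CPM per kb, Tgfb3 at 28.5 ± 12.0 and Tgfb2 at 16.6 ± 4.31 (SD, n = 3). In WT-O2 lungs Tgfb2 was at 36.8 ± 1.39, Tgfb1 at 35.1 ± 2.40 and Tgfb3 at 28.6 ± 1.43 CPM per kb, where the first pair lay within their SDs. In KO-O2 lungs Tgfb2 stood at 39.2 ± 5.57 and Tgfb1 at 34.7 ± 2.54 CPM per kb, which again overlapped.

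Tgfbr2, the type II receptor that binds ligand first, had the smallest p of the members in the lung. It was at 325, 317 and 297 CPM in the WT-RA lungs and at 559, 549 and 536 CPM in the WT-O2 lungs. In KO lungs it was at 313, 313 and 304 CPM in room air and at 537, 597 and 519.7 CPM in hyperoxia. The lowest hyperoxic lung was well above the highest room air lung in both genotypes. The log2 fold changes were 0.81 ± 0.08 in WT, with an adjusted p of 1.6e-06, and 0.83 ± 0.08 in KO, with an adjusted p of 1.4e-06, or 1.75-fold and 1.78-fold. Tgfbr1, the type I receptor kinase, stayed within 39.5 to 52.8 CPM in all 12 lungs and did not pass the test in either genotype, with log2 fold changes of -0.10 ± 0.10 in WT and -0.03 ± 0.10 in KO. Per kilobase, Tgfbr2 was the most abundant of the receptors in every lung group, at 38.3 ± 1.78 CPM per kb in WT-RA and 66.9 ± 1.41 in WT-O2, against 6.98 ± 0.589 and 6.50 ± 0.420 for Tgfbr1.

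Tgfbr3, or betaglycan, the co-receptor that presents Tgfb2 to the signalling receptors, went the other way. It was at 97.8, 83.6 and 62.7 CPM in the WT-RA lungs and at 43.9, 40.5 and 41.4 CPM in the WT-O2 lungs. In KO lungs it was at 84.7, 80.6 and 96.3 CPM in room air and at 45.3, 45.4 and 41.3 CPM in hyperoxia. All 6 hyperoxic lungs lay below all 6 room air lungs, of which WT-RA mouse 3 was the lowest. The log2 fold changes were -0.96 ± 0.13 in WT, with an adjusted p of 4.1e-05, and -0.99 ± 0.13 in KO, with an adjusted p of 3.5e-05. Per kilobase it stood second to Tgfbr2 in room air (12.4 ± 2.70 CPM per kb in WT, 13.3 ± 1.24 in KO), and in hyperoxia it lay close to Tgfbr1 (6.40 ± 0.269 in WT, 6.72 ± 0.360 in KO).

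Promoters of 5 of the 9 members were kept from the RefSeq promoter table (build GRCm38.p6): Tgfb1, Tgfb2, Tgfbr1, Tgfbr2 and Ltbp2. Entries on a chromosome that carries none of these 5 were dropped before the count. It therefore does not show whether a promoter of another member was held. The 250 bases before the annotated start are shown for Tgfb2 and Tgfbr2, the 2 members of this set that rose in the lung, and for Tgfb1, which was level there. They are written 5′ to 3′ on the gene's strand, at chr1:186705990-186706239 (minus strand) for Tgfb2, chr9:116175364-116175613 (minus strand) for Tgfbr2 and chr7:25686752-25687001 (plus strand) for Tgfb1, all upstream of the first exon as annotated. Capitals mark the short Smad-binding box CAGAC on either strand and the E-box CACGTG.
Tgfb2: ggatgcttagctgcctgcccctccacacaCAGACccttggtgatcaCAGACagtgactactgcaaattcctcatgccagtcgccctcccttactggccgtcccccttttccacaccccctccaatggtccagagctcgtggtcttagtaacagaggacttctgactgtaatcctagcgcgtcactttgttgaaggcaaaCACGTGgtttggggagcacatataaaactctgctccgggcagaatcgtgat
Tgfbr2: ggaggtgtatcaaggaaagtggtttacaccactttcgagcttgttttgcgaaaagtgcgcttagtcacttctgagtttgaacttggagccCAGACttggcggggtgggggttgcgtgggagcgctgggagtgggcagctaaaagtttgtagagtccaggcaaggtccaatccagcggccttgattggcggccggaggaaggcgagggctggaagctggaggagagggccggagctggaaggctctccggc
Tgfb1: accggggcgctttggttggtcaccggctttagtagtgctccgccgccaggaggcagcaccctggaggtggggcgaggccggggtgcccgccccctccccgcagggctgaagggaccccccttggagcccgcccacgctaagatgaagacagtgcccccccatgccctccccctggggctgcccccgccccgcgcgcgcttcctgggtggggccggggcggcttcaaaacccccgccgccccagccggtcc
The Tgfb2 window held 2 Smad boxes, starting 221 and 204 bases before the start, and 1 E-box at 51 bases. The Tgfbr2 window held 1 Smad box at 160 bases, and the Tgfb1 window none. Among all 32851 promoters of the table, 42.2% held a Smad box and 6.02% an E-box in a window of this length. Of the other members, Ltbp2 held 2 Smad boxes (at 205 bases and, on the opposite strand, at 176), and Tgfbr1 held 1 at only one of its annotated starts. The AP-1 site TGACTCA, the CRE TGACGTCA, the TEAD site CATTCC and the Smad palindrome GTCTAGAC were searched on both strands. None was in the windows of these 5 members, against 4.46%, 1.55%, 12.6% and 0.167% of all promoters. CAGAC shares its last 4 letters with GTCTAGAC, and TGACTCA its first 4 with TGACGTCA, but no motif contains another.

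Ccn2, a matricellular protein and a classical target of TGF-beta in fibrosis, showed the largest log2 fold change of the members in WT lungs. It was at 346, 285 and 177 CPM in WT-RA and at 801, 705 and 984 CPM in WT-O2. In KO lungs it was at 164, 301 and 297 CPM in room air and at 766, 735 and 393 CPM in hyperoxia. The groups did not overlap in either genotype, and KO-O2 mouse 3 was the lowest hyperoxic lung. The log2 fold changes were 1.62 ± 0.35 in WT, with an adjusted p of 0.0044, and 1.31 ± 0.34 in KO, with an adjusted p of 0.013.

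Markers of other cells moved with these values in the lung. The smooth muscle list of 6 genes, none of them at 0 in any group, summed to 702 to 1186 CPM in WT-RA against 1489 to 1642 CPM in WT-O2. It summed to 698 to 793 CPM in KO-RA against 805 to 1522 CPM in KO-O2. Of the 6 genes 5 rose in WT and 3 in KO, beside 24.5% and 23.3% of all tested genes. KO-O2 mouse 3 was the lowest of the hyperoxic lungs for this list as for Ccn2, whereas WT-RA mouse 3 was the highest of the room air lungs for the list and the lowest of its group for Ccn2. With the list as a covariate, an alternative chosen after seeing the data, the log2 fold change of Ccn2 was 1.33 in WT (adjusted p = 0.17) and 1.05 in KO (adjusted p = 0.23), so it no longer passed. In the same fit Tgfb2 still passed at 0.73 and 1.04, Tgfbr2 at 0.75 and 0.78, and Tgfbr3 at -0.79 and -0.84. Ltbp2 passed as lower in that fit, at -0.70 in WT (adjusted p = 0.017) and -0.77 in KO (adjusted p = 0.0075). The summed list did not overlap between the exposures in either genotype, and its genes Acta2 and Tagln are also pathway targets. The fit therefore separates the list poorly from the exposure, and a call lost or gained in it does not tell them apart.

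The counts of marker genes that follow stand beside 24.5% higher and 24.7% lower of all tested genes in WT, and 23.3% and 23.4% in KO. The macrophage list rose in 6 of 7 genes in WT and 7 of 7 in KO, from 242 to 281 up to 393 to 412 CPM in WT, and from 205 to 212 up to 315 to 397 CPM in KO. The fibroblast list fell in 4 of 6 genes in each genotype and rose in 1, from 9984 to 12070 down to 4048 to 5842 CPM in WT. The endothelial list fell in 4 of 7 genes in WT and 3 in KO and rose in 1, from 3893 to 4255 down to 2944 to 3366 CPM in WT. The erythroid list fell in all 7 tested genes in WT, from 15740 to 18150 down to 2919 to 4151 CPM, and in 1 in KO, where the hyperoxic lungs ranged from 5968 to 29920 CPM. The mesothelial list rose in 2 of 4 genes in each genotype, from 21.2 to 111 up to 117 to 310 CPM in WT and from 72.4 to 128 up to 204 to 415 CPM in KO. The alveolar type 2 list fell in 2 of 4 genes in WT and 3 in KO, from 17350 to 18960 down to 11990 to 14780 CPM in WT and from 17720 to 19810 down to 11970 to 14040 CPM in KO. No marker of these lists that the table holds was at 0 in any group, and their part in the members' values was not tested beyond the fits with the smooth muscle and the erythroid list. With the erythroid list as a covariate Tgfb2, Tgfbr2, Tgfbr3 and Ccn2 passed in both genotypes. In WT that list did not overlap between the exposures either.

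**Figure D2:**
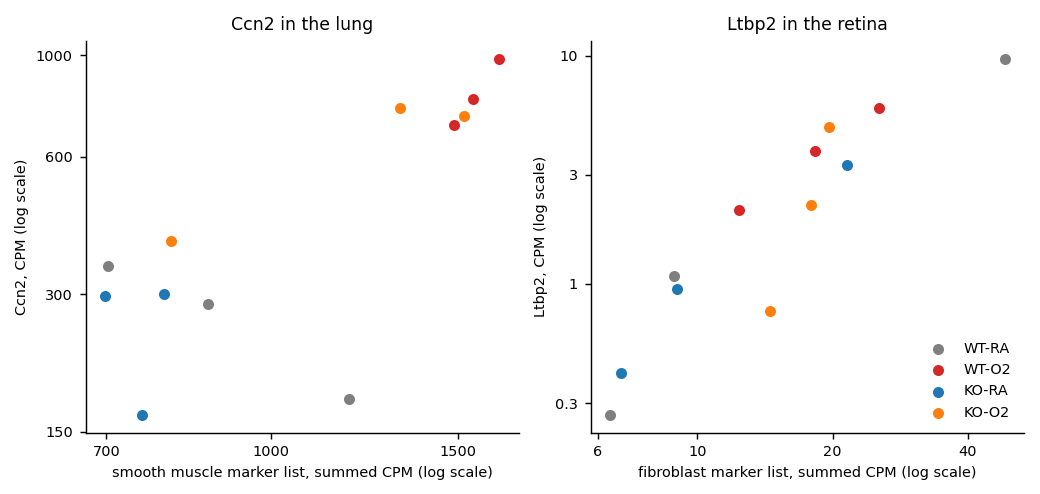
Left, Ccn2 against the summed smooth muscle list in the 12 lungs, and right, Ltbp2 against the summed fibroblast list in the 12 retinas, both in CPM on log scales with 1 point per mouse. The lung KO-O2 mouse with 393 CPM of Ccn2 lies beside the room air mice, and the retina WT-RA mouse with 9.72 CPM of Ltbp2 is at the top right.

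Ltbp2, a protein of elastic fibres from the family of latent TGF-beta binding proteins, did not pass the test in either genotype. It was at 402, 493 and 793 CPM in WT-RA and at 559, 478 and 583 CPM in WT-O2, and in KO lungs at 700.3, 656 and 632 CPM in room air and at 639, 664 and 472 CPM in hyperoxia. WT-RA mouse 3 was the highest of all 12 lungs, and the groups overlapped. That mouse was also the highest lung for Tgfb3 and the highest room air lung for Tgfb2. Its mesothelial list summed to 21.2 CPM, the lowest of all lungs, where the other lungs held 69.9 to 415 CPM. Smad7, the inhibitory Smad that the pathway induces against itself, was at 101, 85.4 and 99.3 CPM in WT-RA and at 81.8, 90.0 and 78.9 CPM in WT-O2. It was at 94.0, 118 and 107 CPM in KO-RA and at 92.2, 79.4 and 91.5 CPM in KO-O2. The KO groups did not overlap and the WT groups did: the log2 fold change of Smad7 was -0.28 ± 0.10 in KO (adjusted p = 0.039) and -0.19 ± 0.10 in WT (adjusted p = 0.15). Without KO-RA mouse 2 or without KO-O2 mouse 2 the adjusted p in KO was 0.18, and without WT-RA mouse 2 that in WT was 0.083. With the smooth muscle list as a covariate Smad7 had a log2 fold change of -0.18 in KO (adjusted p = 0.40).

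Loss of GSDMD was not seen to alter any member in the lung. None of the 9 passed in KO-O2 against WT-O2 (0.0416% of all tested genes did), in KO-RA against WT-RA (0.488%) or in the interaction of genotype and hyperoxia (0.00595%) by edgeR. Under DESeq2 the count was also 0 of 9 in each, and 0 had an unadjusted p under 0.05 by edgeR. In hyperoxia the log2 differences, KO against WT, lay between -0.39 ± 0.34 for Ccn2 and 0.13 ± 0.21 for Ltbp2. The largest difference of responses was that of Ccn2, -0.31 ± 0.48, followed by Tgfb2 at 0.28 ± 0.21. These standard errors leave room for a difference of genotype in Ccn2, Tgfb3 and Ltbp2, and less so in Tgfbr2, whose responses differed by 0.02 ± 0.11. Without WT-RA mouse 3, 1 member passed in KO-RA against WT-RA: Ltbp2, with a log2 difference of 0.57 ± 0.14 (adjusted p = 0.057).

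**Figure D3:**
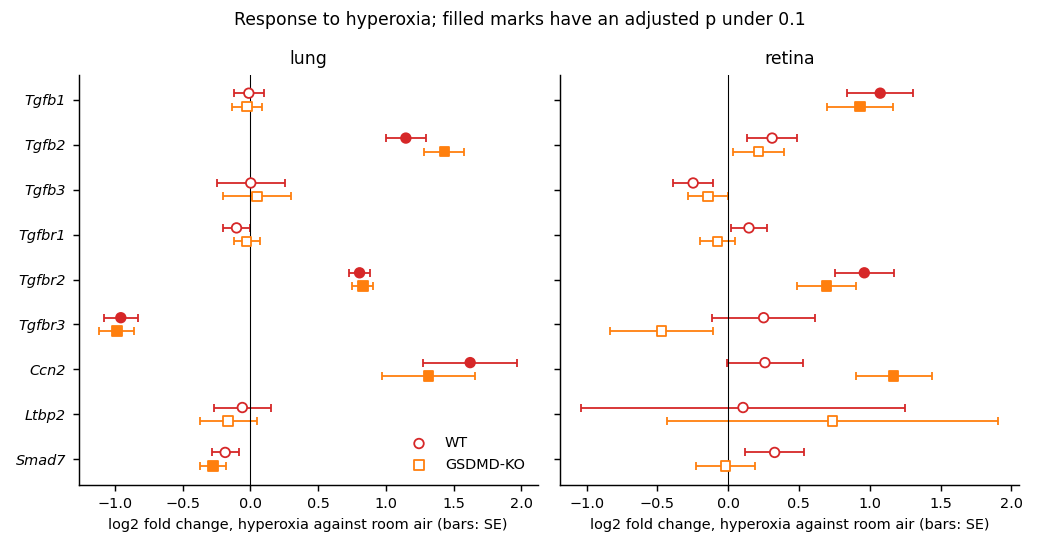
Log2 fold change of each member in hyperoxia against room air in the lung (left) and the retina (right), with SE bars, in WT (circles) and GSDMD-KO (squares). Filled marks passed the test: 4 members in WT and 5 in KO in the lung, 2 and 3 in the retina.

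Among the genes around the members in the pathway, more rose than fell in the lung. Over 6 lists of 92 further pathway genes, 91 were tested in the lung, and 46 rose and 13 fell in WT, where the median log2 fold change was 0.32. In KO 41 rose and 15 fell, with a median of 0.19. Of all tested genes 24.5% rose and 24.7% fell in WT, and 23.3% rose and 23.4% fell in KO. The share of the lists that rose was above that of all tested genes, as the plot of the lists shows. Of 14 genes of latency and activation, 9 rose and none fell in WT by edgeR (9 had an unadjusted p under 0.05), while 6 rose and 2 fell in KO. Among them were the integrin subunits that free latent TGF-beta: Itgb6 was at 53.9 ± 5.94 CPM in WT-RA and 112 ± 7.94 in WT-O2, and Itgav at 40.7 ± 1.75 and 83.3 ± 10.8. Their log2 fold changes in WT were 1.06 ± 0.12 (adjusted p = 1.02e-05) and 1.03 ± 0.12 (adjusted p = 1.21e-05). Thbs1, thrombospondin, which activates latent TGF-beta, went from 142 ± 0.329 to 801 ± 225 CPM in WT, a log2 fold change of 2.50 ± 0.29 (adjusted p = 7.09e-05), and from 117 ± 2.84 to 692 ± 288 CPM in KO.

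Of 25 other transcriptional targets, 14 rose and 2 fell in WT and 12 rose and 2 fell in KO. Beside these stand 24.5% higher and 24.7% lower of all tested genes in WT, and 23.3% and 23.4% in KO. Timp1, an inhibitor of metalloproteinases, rose by 3.96 ± 0.20 in WT and 3.44 ± 0.19 in KO on the log2 scale, and Cdkn1a, the cell cycle inhibitor p21 that p53 also induces, by 3.71 ± 0.26 and 3.50 ± 0.25. The 2 that fell in both genotypes were Eln, which encodes elastin, and Tsc22d1. Acta2 and Tagln of this list are also in the smooth muscle list, and Ccn1 is also counted in the CCN family. Among 18 tested antagonists and other ligands of the family, 10 rose and 3 fell in each genotype. Inhba, which encodes the subunit of activin A, was at 2.32 ± 0.495 CPM in WT-RA and 158 ± 17.2 in WT-O2, a log2 fold change of 6.09 ± 0.20, and of 6.59 ± 0.21 in KO. Fstl3, an activin antagonist, rose by 1.09 ± 0.09 in WT and 0.72 ± 0.09 in KO on the log2 scale. Bmp6 went from 146 ± 9.11 to 41.5 ± 2.35 CPM in WT, a log2 fold change of -1.81 ± 0.09, and of -1.53 ± 0.09 in KO.

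Of 18 Smads and their regulators, 7 rose and 3 fell in WT and 8 rose and 3 fell in KO. For this and the next 2 lists the share of all tested genes was 24.5% higher and 24.7% lower in WT. In KO it was 23.3% and 23.4%. Pmepa1, a target that restrains Smad signalling, rose by 0.97 ± 0.13 in WT and 0.75 ± 0.12 in KO on the log2 scale. The corepressor Tgif2 had log2 fold changes of -1.04 ± 0.11 in WT and -0.64 ± 0.11 in KO. Smad1, which conveys BMP signals, rose by 0.50 ± 0.10 and 0.42 ± 0.10. The 12 other receptors and co-receptors split, with 4 higher and 5 lower in WT and 3 higher and 5 lower in KO, where the share that rose lay near that of all tested genes. Cd109, a co-receptor that dampens TGF-beta signalling, was at 3.38 ± 0.704 CPM in WT-RA and 32.5 ± 4.18 in WT-O2, a log2 fold change of 3.26 ± 0.15, and of 3.42 ± 0.15 in KO. Acvrl1, the endothelial type I receptor ALK1, had log2 fold changes of -0.53 ± 0.09 in WT and -0.42 ± 0.09 in KO, and in WT it lost the call with the erythroid list as a covariate (-0.32, adjusted p = 0.24). Acvr1, a type I receptor for BMPs, had 0.44 ± 0.09 and 0.63 ± 0.09. Of 5 relatives of Ccn2, the CCN family, Ccn1, Ccn3 and Ccn4 rose in both genotypes and none fell. Their log2 fold changes in WT were 1.28 ± 0.41 for Ccn1 (adjusted p = 0.0324), 0.82 ± 0.20 for Ccn3 and 0.65 ± 0.22 for Ccn4 (adjusted p = 0.0374), and all 3 lost the call in WT with the smooth muscle list as a covariate. In that fit Ccn4 had 0.067 (adjusted p = 0.88), while Ccn1 still had 1.04 (adjusted p = 0.37) and Ccn3 0.60 (adjusted p = 0.22). Acvr1 and Smad1 also lost the call there, at 0.32 (adjusted p = 0.14) and 0.37 (adjusted p = 0.11). As said above, that fit separates the list poorly from the exposure. Ccn1 also lost the call without WT-RA mouse 3 or WT-O2 mouse 3 (log2 fold changes of 1.14 and 0.99), and Ccn4 without WT-RA mouse 1 or 2 (0.45 and 0.57).

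**Figure D4:**
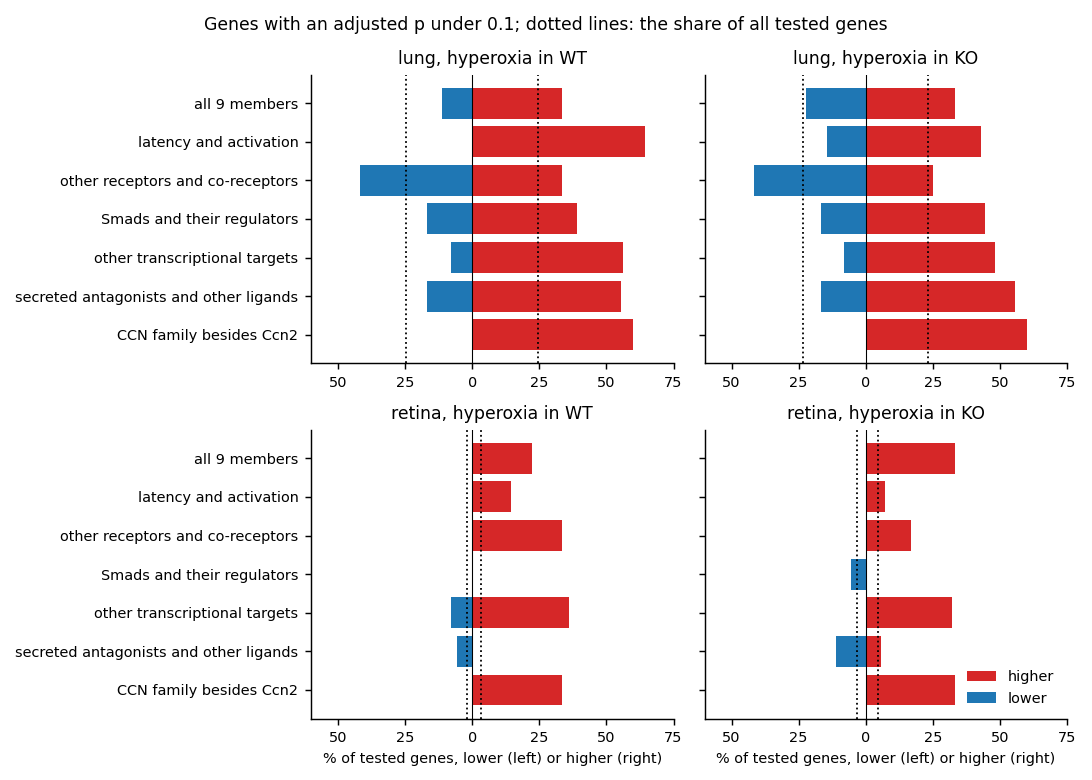
Percent of the tested genes of each list that were higher (right, red) or lower (left, blue) in hyperoxia at an adjusted p under 0.1, for both tissues and genotypes. Dotted lines give the share of all tested genes, 24.5% higher in WT lungs and 3.11% in WT retinas.

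No gene of the 6 lists passed in KO-O2 against WT-O2, in KO-RA against WT-RA or in the interaction in the lung by edgeR. There were 10, 12 and 6 of the 91 genes with an unadjusted p under 0.05, and DESeq2 called 0, 1 (Bmp6, named after its value was seen) and 0. For the unadjusted limit the share of all tested genes was not computed. The genes whose pattern over the 12 lungs was most like that of Tgfbr2 were Tes, Ahcy and Mroh1. Likeness was the root mean square difference of log2 CPM after each gene was centred on its mean, which was 0.0726, 0.0744 and 0.0777 for these genes.

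In the retina Tgfb1 and Tgfbr2 rose with hyperoxia in both genotypes, and Ccn2 rose in KO. In WT retinas 2 of 9 members passed as higher and none as lower, in a comparison in which 3.11% of all tested genes were higher and 2.05% lower. In KO 3 passed as higher and none as lower, beside 4.38% and 3.44% of all tested genes. A change of at least 2-fold was reached by 1 member in WT (Tgfb1; 2.04% of all tested genes) and 1 in KO (Ccn2; 2.19%). By edgeR 2 members in WT and 3 in KO had an unadjusted p under 0.05, which were those that passed, and DESeq2 called the same genes, 2 in WT and 3 in KO. The members' median log2 fold change was 0.26 in WT and 0.22 in KO, where that of all tested genes was 0.00.

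**Figure D5:**
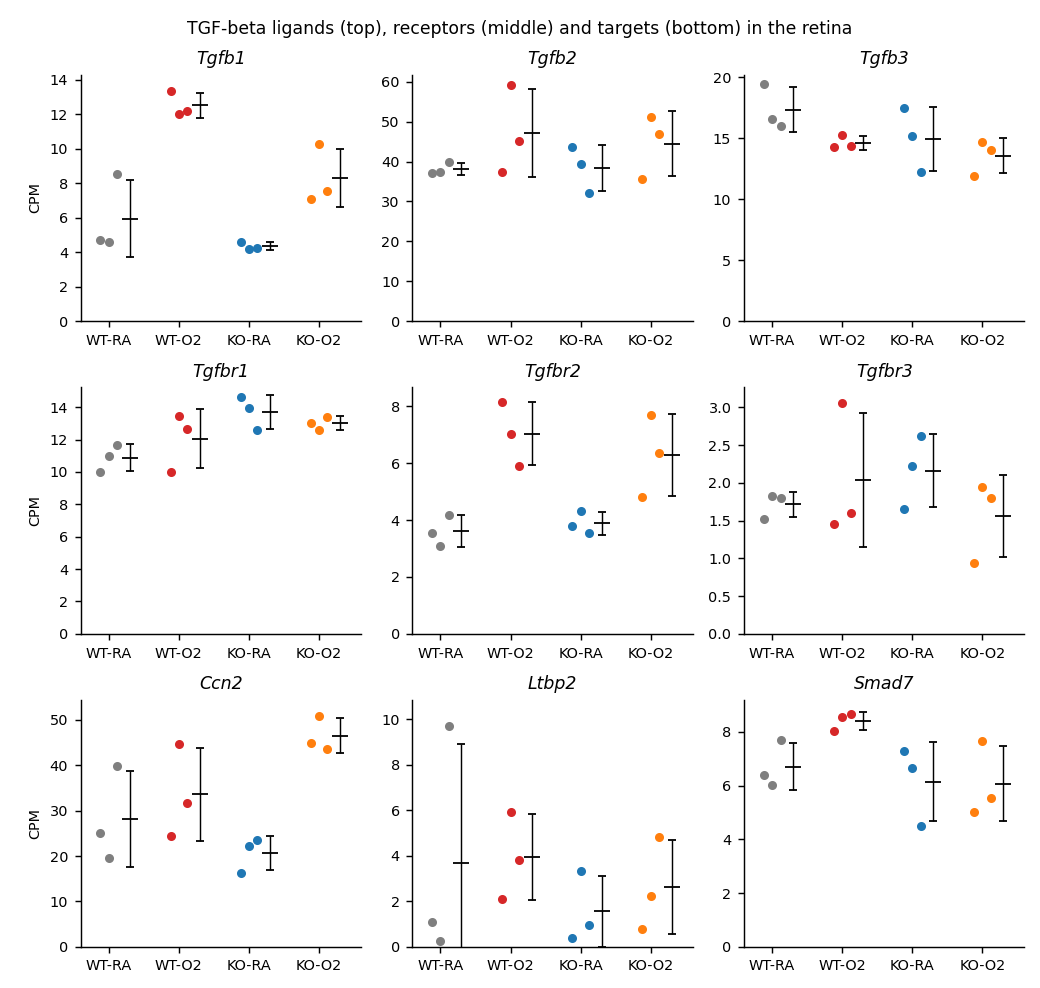
Expression of the 9 members in each of the 12 retinas, in CPM on axes that start at 0, by group. Points are mice, and the black mark and bar are the mean and SD of 3 mice, with the bar cut at 0 for Ltbp2. Tgfb1 lies between 7.11 and 13.3 CPM in the 6 hyperoxic retinas and between 4.202 and 8.56 CPM in the 6 room air retinas.

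Tgfb1 was at 4.72, 4.57 and 8.56 CPM in the WT-RA retinas and at 13.3, 12.0 and 12.2 CPM in the WT-O2 retinas. In KO it was at 4.59, 4.202 and 4.25 CPM in room air and at 7.11, 10.3 and 7.53 CPM in hyperoxia. The groups did not overlap in either genotype, and WT-RA mouse 3, the library with the most lens RNA, was the highest in room air. The log2 fold changes were 1.07 ± 0.23 in WT, with an adjusted p of 0.037, and 0.93 ± 0.23 in KO, with an adjusted p of 0.051. Tgfbr2 was at 3.56, 3.09 and 4.195 CPM in WT-RA and at 8.15, 7.04 and 5.92 CPM in WT-O2. In KO it was at 3.78, 4.34 and 3.53 CPM in room air and at 4.82, 7.69 and 6.37 CPM in hyperoxia. Again no hyperoxic retina fell among the room air retinas of its genotype. Its log2 fold changes were 0.96 ± 0.21 in WT (adjusted p = 0.038) and 0.70 ± 0.21 in KO (adjusted p = 0.089). These values rest on 81 to 226 counts per library for Tgfbr2 and 107 to 385 for Tgfb1.

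These retina calls lie near the threshold and single mice decide them. In WT both were lost without the library labelled WT-RA, mouse 2, where the log2 fold change was 0.91 for Tgfb1 (adjusted p = 0.13) and 0.86 for Tgfbr2 (adjusted p = 0.14). Both were also lost without WT-RA mouse 1, WT-O2 mouse 1 or WT-O2 mouse 2, with adjusted p of 0.10 to 0.14, and the log2 fold changes stayed between 0.91 and 1.43 for Tgfb1 and between 0.84 and 1.08 for Tgfbr2 with any 1 mouse left out. The 3 lens-rich libraries were also left out together, an alternative chosen after seeing the data. It left WT-RA mouse 1 alone in its group, and Tgfbr2 had a log2 fold change of 0.98 in WT. With 1 WT-RA retina this fit cannot judge the spread in that group, so it decides neither call in WT. In KO, Tgfb1 lost its call without any one of KO-RA mice 1, 2 and 3 or KO-O2 mouse 2 (adjusted p of 0.13 to 0.21), and Tgfbr2 lost it in 10 of the 12 fits with 1 mouse left out (largest adjusted p 0.32). Tgfbr2 in KO also lost it with no filter on low counts (adjusted p = 0.13), with only the 2 groups compared (0.15) and without the lens-rich libraries (0.24), at log2 fold changes of 0.70, 0.69 and 0.64.

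The pigment epithelium list of 5 genes, none of them at 0 in any group, summed to 55.2 to 360 CPM in KO-RA against 12.2 to 39.4 CPM in KO-O2, with no overlap, and to 26.03 to 88.5 CPM in WT-RA against 17.2 to 27.8 CPM in WT-O2, with overlap. None of the 5 genes passed in KO by edgeR, where 3 had an unadjusted p under 0.05. With the list as a covariate both genes lost the call in KO, Tgfb1 at a log2 fold change of 0.96 (adjusted p = 0.15) and Tgfbr2 at 0.58 (adjusted p = 0.31), and both kept it in WT. In KO, where the list did not overlap, the fit separates it poorly from the exposure.

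Between the exposures, markers of vessels and of macrophages and microglia moved with Tgfb1 and Tgfbr2 in the retina. Of all tested genes 3.11% rose in WT and 4.38% in KO. The endothelial list rose in 6 of 7 genes in WT and 5 in KO, from 90.6 to 110 up to 181 to 208 CPM in WT and from 111 to 121 up to 149.6 to 169.6 CPM in KO. The pericyte list rose in 5 of 5 genes in WT and 4 in KO, from 69.6 to 84.8 up to 173 to 224 CPM in WT and from 90.8 to 93.9 up to 114 to 182 CPM in KO. The list of macrophages and microglia rose in 3 of 7 genes in each, from 29.7 to 40.1 up to 52.6 to 78.8 CPM in WT and from 24.7 to 37.9 up to 54.9 to 77.9 CPM in KO. No gene of the 3 lists was at 0 in any group, and their part in the result was not tested. Of 4 tested neutrophil genes none passed in either genotype. Within WT-O2, mouse 1 was highest for the endothelial and pericyte lists and for Tgfb1 and Tgfbr2. Within KO-O2, mouse 1 was highest for both lists and lowest for both genes. The list of macrophages and microglia was highest in WT-O2 mouse 3, which was highest for neither gene. In KO-O2 it was highest in mouse 2, which was highest for both genes. By likeness of pattern over the 12 retinas, the nearest genes to Tgfb1 were Trp53i11, Ehd2 and Fcer1g, with root mean square differences of 0.206, 0.212 and 0.222 in centred log2 CPM.

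The other ligands and receptors did not pass in the retina, except for Tgfb3 in 1 alternative. Tgfb2 was at 37.1, 37.3 and 39.98 CPM in WT-RA and at 37.5, 59.2 and 45.1 CPM in WT-O2, and in KO at 43.6, 39.3 and 32.1 CPM in room air and at 35.6, 51.2 and 46.8 CPM in hyperoxia, so the groups overlapped in both genotypes. Its log2 fold changes were 0.31 ± 0.18 in WT (adjusted p = 0.41) and 0.22 ± 0.18 in KO (adjusted p = 0.55). Tgfb3 ran from 11.9 to 19.5 CPM over all retinas, with log2 fold changes of -0.25 ± 0.14 in WT and -0.14 ± 0.14 in KO. With the pigment epithelium list as a covariate Tgfb3 passed as lower in both genotypes, at -0.45 in WT (adjusted p = 0.044) and -0.43 in KO (adjusted p = 0.095). Tgfbr1 ran from 9.995 to 14.6 CPM, with log2 fold changes of 0.15 ± 0.13 and -0.08 ± 0.13. Tgfbr3 was the scarcest receptor, at 0.936 to 3.05 CPM and 27 to 98 counts per library, with log2 fold changes of 0.25 ± 0.36 and -0.47 ± 0.36. Per kilobase the ligands kept 1 order in all 4 retina groups: in WT-RA Tgfb2 was at 6.58 ± 0.278 CPM per kb, Tgfb3 at 5.13 ± 0.551 and Tgfb1 at 1.18 ± 0.449. In WT-O2 they were at 8.16 ± 1.90, 4.32 ± 0.163 and 2.48 ± 0.143 CPM per kb. Among the receptors Tgfbr1 led per kilobase in every retina group, with 1.67 ± 0.127 CPM per kb in WT-RA against 0.441 ± 0.0680 for Tgfbr2 and 0.262 ± 0.0260 for Tgfbr3.

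Ccn2 rose in KO retinas. It was at 25.1, 19.5 and 39.9 CPM in WT-RA and at 24.5, 44.7 and 31.7 CPM in WT-O2, where the groups overlapped. In KO it was at 16.3, 22.1 and 23.6 CPM in room air and at 44.8, 50.9 and 43.7 CPM in hyperoxia, with no overlap. The log2 fold changes were 0.26 ± 0.27 in WT (adjusted p = 0.68) and 1.17 ± 0.27 in KO (adjusted p = 0.039). The difference of the responses was 0.91 ± 0.38, with an adjusted p of 0.42, so a difference between the genotypes was not shown. The call in KO was lost without KO-RA mouse 1 (adjusted p = 0.14), without KO-O2 mouse 2 (adjusted p = 0.15) and with the Y-linked list as a covariate (log2 fold change 1.01, adjusted p = 0.16), a list that was present in 3 of 3 KO-RA and 1 of 3 KO-O2 retinas.

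Ltbp2 varied more between retinas of 1 group than between groups. It was at 1.08, 0.267 and 9.72 CPM in WT-RA and at 2.11, 5.92 and 3.81 CPM in WT-O2, and in KO at 0.405, 3.33 and 0.953 CPM in room air and at 0.763, 2.22 and 4.85 CPM in hyperoxia, from 7 to 227 counts. The highest and the lowest retina were both WT-RA mice. The log2 fold changes were 0.10 ± 1.15 in WT and 0.74 ± 1.17 in KO, and neither passed the test. The fibroblast list (6 genes, none at 0 in any group, 3 of them tested) was highest, at 48.3 CPM, in WT-RA mouse 3 and lowest, at 6.40 CPM, in the library labelled WT-RA, mouse 2, which were also the highest and the lowest for Ltbp2. In the remaining retinas the list summed to 6.75 to 25.4 CPM, and WT-O2 mouse 2, second for the list, was second for Ltbp2. With that list as a covariate, an alternative chosen after seeing the data, Ltbp2 had a log2 fold change of 2.68 in KO (adjusted p = 0.098), and Tgfb1 and Ccn2 passed there as well. WT-RA mouse 3 also had the highest Ccn2 of the room air retinas.

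Smad7 was at 6.40, 6.02 and 7.71 CPM in WT-RA and at 8.03, 8.54 and 8.67 CPM in WT-O2. In KO it was at 7.29, 6.66 and 4.49 CPM in room air and at 5.03, 7.65 and 5.53 CPM in hyperoxia. The WT groups did not overlap, but neither response passed: the log2 fold change was 0.33 ± 0.21 in WT (adjusted p = 0.46) and -0.02 ± 0.21 in KO (adjusted p = 0.98).

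Between the genotypes no member passed in the retina by edgeR or DESeq2, in hyperoxia (1.27% of all tested genes passed by edgeR), in room air (0.00522%) or in the interaction (0.00522%). At an unadjusted p under 0.05 there were 2 members in hyperoxia, 1 in room air and 1 in the interaction, which was Ccn2. The share of all tested genes at this limit was not computed. In hyperoxia Tgfb1 was lower in KO than in WT by a log2 difference of -0.59 ± 0.23 (adjusted p = 0.30), and the 3 KO-O2 retinas, at 7.11 to 10.3 CPM, lay below the 3 WT-O2 retinas, at 12.0 to 13.3 CPM. Smad7 had a log2 difference of -0.47 ± 0.21 in hyperoxia (adjusted p = 0.38), also without overlap. Tgfbr1 had a log2 difference of 0.33 ± 0.13 in room air (adjusted p = 0.33). The other members' log2 differences lay between -0.60 ± 1.15 (Ltbp2) and 0.47 ± 0.26 (Ccn2) in hyperoxia, and between -1.23 ± 1.18 (Ltbp2) and 0.33 ± 0.36 (Tgfbr3) in room air.

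Of the 92 further pathway genes 89 were tested in the retina. In WT 15 rose and 3 fell, with a median log2 fold change of 0.21, beside 3.11% and 2.05% of all tested genes. In KO 12 rose and 3 fell, with a median of 0.11, beside 4.38% and 3.44% of all tested genes. Most of those that rose were among the 25 other transcriptional targets, of which 9 rose and 2 fell in WT and 8 rose and none fell in KO by edgeR, where 15 had an unadjusted p under 0.05. Fn1, which encodes fibronectin, was at 33.6 ± 5.59 CPM in WT-RA and 104.2 ± 24.5 in WT-O2, a log2 fold change of 1.63 ± 0.22 (adjusted p = 0.00384), and of 1.62 ± 0.22 in KO. Timp1 had log2 fold changes of 2.74 ± 0.46 in WT and 1.82 ± 0.45 in KO, and Postn, which encodes periostin, had 1.41 ± 0.25 and 0.87 ± 0.24. With the Y-linked list as a covariate Timp1 had 2.36 in WT (adjusted p = 0.10). The 2 that fell in WT were Eln and Id2.

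Of 12 other receptors and co-receptors 4 rose in WT and 2 in KO, beside 3.11% and 4.38% of all tested genes, and none fell by edgeR. Eng, the endothelial co-receptor endoglin, was at 18.2 ± 2.26 CPM in WT-RA and 48.2 ± 6.64 in WT-O2, a log2 fold change of 1.40 ± 0.20 (adjusted p = 0.00504), and of 1.11 ± 0.20 in KO. Without the 3 lens-rich libraries, which left WT-RA mouse 1 alone in its group, Eng had 1.21 in WT. Acvrl1, which fell in the lung, had log2 fold changes of 1.03 ± 0.16 in WT retinas (adjusted p = 0.00802) and 0.42 ± 0.16 in KO (adjusted p = 0.167). Cd109 had 2.75 ± 0.47 and 2.60 ± 0.46, with WT means of 0.370 CPM in room air and 2.51 CPM in hyperoxia. Among 14 genes of latency and activation, Lrrc32, which holds latent TGF-beta at the cell surface, and Itgb1 rose in WT, at 2.02 ± 0.32 and 0.95 ± 0.17, and Lrrc32 rose in KO at 1.73 ± 0.32, where Itgb1 had 0.41 ± 0.17 (adjusted p = 0.196). None of the 18 Smads and regulators passed in WT by edgeR, where 1 had an unadjusted p under 0.05, and 1 fell in KO, Zfyve9. Of 18 antagonists and other ligands, 1 fell in WT, Gdf11 (-0.42 ± 0.12, adjusted p = 0.0997, lost in 10 of 12 fits with 1 mouse left out), and in KO 2 fell, Gdf11 among them, and Fstl3 rose. Of 3 tested CCN genes Ccn1, which is also counted among the transcriptional targets, rose, by 1.58 ± 0.38 in WT (adjusted p = 0.0526) and 1.34 ± 0.38 in KO on the log2 scale. In WT it lost the call without WT-RA mouse 1, the library labelled WT-RA, mouse 2, or WT-O2 mouse 2 (1.45, 1.39 and 1.03). It also lost it with the Y-linked list as a covariate (1.35, adjusted p = 0.25). Without the lens-rich libraries, with WT-RA mouse 1 alone in its group, Ccn1 had 1.89 in WT.

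None of the 89 genes passed between the genotypes or in the interaction in the retina by edgeR, where 10 in hyperoxia, 8 in room air and 8 in the interaction had an unadjusted p under 0.05. For that limit the share of all tested genes was not computed. DESeq2 called 3 in hyperoxia (Timp1, Skil and Tgif1), 1 in room air (Bmpr1a) and 1 in the interaction (Ccn4), which are named after their values were seen.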

How the data were processed

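RNA of 12 lungs and 12 retinas was sequenced by BGI, and samples were grouped by the tissue, genotype and exposure on their labels. Mouse numbers 1 to 3 only name the mice of a group. Reads were assigned by kallisto and brought to gene level by tximport. For each tissue the authors deposited a table of these expected counts, which are estimated counts. Of the values above 0, 25.9% in the lung table but 0.061% in the retina table were whole numbers (within 1e-06), so the retina table may have been scaled within a library, which would alter its counts and its levels per kilobase. FastQC and mm10 stand in the submitters' processing notes, the study's methods name another mouse build, and the settings of tximport are not given in the sources used here. The identifiers of the lung and retina tables come from different annotations, so tests were made within a tissue only. Number of value columns not mapped to a sample: 0.

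Counts were rounded and fitted with edgeR 4.0.16 under R 4.3.3, in which the 12 samples of a tissue shared 1 model with a term per group, TMM factors, filterByExpr, glmQLFit with robust=TRUE and the quasi-likelihood F-test. p-values judge a difference of groups against the spread between mice, estimated over the groups of a tissue together. A gene passed at an adjusted p under 0.1 and p under 0.05, the study's limits, and separately at 2-fold. Each standard error (SE) was obtained by dividing the size of the log2 fold change by the root of its F statistic. CPM use TMM factors. Exon lengths came from GENCODE on GRCm38. Alternatives were DESeq2 1.42.0, RLE factors, no filter, only the groups compared, each mouse left out, and marker lists as covariates. A list entered a fit as the mean log2 CPM of its genes, not as the summed CPM given in the text. The Y-linked list entered as the log2 of its summed CPM plus 1. The code was tested on simulated counts.

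The members, the pathway and marker lists and the tests were chosen with earlier results of these data known. Named are all members in both hyperoxia comparisons, members with p under 0.05 between genotypes, the 3 genes of each list with the smallest p among those that passed in WT, any gene behind a count of 5 or fewer, and the 3 genes nearest in pattern to the member with the smallest p in WT of each tissue. The values of some pathway genes that the lists hold are not reported here.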

Additional observations from a re-analysis of the deposited data

How the results depend on the processing

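Of 1323 gene values computed under the alternatives for 68 results, 1209 kept their direction and their side of the threshold, 71 lost the call, 6 gained it and 37 changed sign. Tgfb2, Tgfbr2 and Tgfbr3 in the lung passed under each alternative run, at adjusted p of at most 0.028. With the smooth muscle list as a covariate 0 members reached 2-fold in WT lungs and 1 in KO lungs (Tgfb2), and the log2 fold changes of Tgfb3 (-0.60 in WT, -0.53 in KO) and Tgfbr1 (0.048 in WT, 0.10 in KO) changed sign. With the erythroid list those of Tgfb1 (0.15 in WT, 0.0061 in KO) and Ltbp2 (0.55 in WT) did, and with only the 2 groups compared that of Tgfb3 in WT (-0.0032). In the retina 2 members reached 2-fold in WT with the Y-linked list, and 3 reached it in KO with the fibroblast list. The fit without the lens-rich libraries left 1 WT-RA retina, so its calls in WT are not given. The signs of Tgfbr1 (-0.023) and Ltbp2 (-0.53) in WT and Smad7 (0.13) in KO changed with the Y-linked list, that of Smad7 in KO (0.042) with the fibroblast list, and that of Tgfb2 in KO (-0.0089) with the pigment epithelium list. The cause was not tested.

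With 1 mouse left out, members past the test ranged from 0 to 1 in lungs in KO against WT in room air, from 0 to 2 in WT retinas and from 0 to 3 in KO retinas, and those past 2-fold from 0 to 2 in both retina comparisons. Log2 fold changes ranged, in WT lungs, from -0.10 to 0.12 for Tgfb1, -0.25 to 0.37 for Tgfb3 and -0.25 to 0.27 for Ltbp2, and in KO lungs from -0.10 to 0.026 for Tgfb1, -0.080 to 0.15 for Tgfb3 and -0.11 to 0.070 for Tgfbr1. They ranged in WT retinas from -0.17 to 0.44 for Tgfbr3, -0.00094 to 0.59 for Ccn2 and -0.45 to 2.55 for Ltbp2, and in KO retinas from -0.069 to 1.95 for Ltbp2 and -0.22 to 0.12 for Smad7. No member that had passed changed sign. No paired analysis was possible because the labels give mouse identifiers but no litters or replicate numbers. The WT mice were littermates of KO mice, but which mice of different groups belong together is not known. The counts of 7 to 227 per library behind Ltbp2 and 27 to 98 behind Tgfbr3 in the retina limit both.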
